A study of Drosophila melanogaster with 38 samples.

Results

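The 9 genes Hr38, Hr39, Hr51, Hr78, Hr83, Hr96, Hnf4, ERR and dsf encode the nuclear receptors of Drosophila melanogaster that lie outside the early ecdysone response and outside the embryonic patterning receptors. They were taken from a fixed list of gene names, and with them every MSL2 peak that overlapped the annotated gene or the 1 kb to either side of it (dm6 coordinates). The genes are 9 of 18277 annotated genes, all on autosomes, and 8 of 2524 distinct MSL2 peaks lay at them. Nuclear receptors are transcription factors with a zinc finger domain that binds DNA and, in most cases, a domain that binds a small lipophilic ligand such as a steroid, a sterol or a fatty acid. Many bind sites built from the half-site AGGTCA, alone or in repeats. In flies the family links hormone signals to moulting and metamorphosis, and several of its members control the use of sugar and fat in the larva.

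The study compared larvae of the third instar, female and male, by chromatin immunoprecipitation and sequencing, in 38 libraries with 1 library per combination of sex, genotype and target. MSL2, the male-specific subunit of the MSL dosage compensation complex, was precipitated as a FLAG fusion in 2 libraries, 1 from females and 1 from males, of larvae with the alleles msl-2227/msl-2km, the driver tub-Gal4 and the transgene UAS-msl-2::3Flag. The control for the FLAG antibody was an untagged genotype, msl-2227/km / CyO-GFP with + / + in place of driver and transgene, also with 1 library per sex. The other libraries were for MLE and for histones (H3, H4, H3ac, H4ac, H4K16ac and H3K36me3), or were inputs. Some of those for H3 and H4K16ac came from larvae labelled msl2het or msl2null, of both sexes. Chromatin came from the dissected front part of the larvae. The tagged protein was thus made from a transgene under a broadly active tubulin driver, in females as well as in males and in a mixture of tissues. The values described here are 3 peak lists made for the whole series: 159 distinct intervals named for high-affinity sites (HAS, the main MSL binding sites on X), 680 other peaks on X and 1685 peaks of a list named for the autosomes, of which 1669 lay on chromosomes 2, 3 and 4. The sources used here do not say which libraries, or which sex, stood behind a list. No list carries a usable score and the depth is unknown, so a peak is present or absent and has a position and a width, and nothing below compares sexes, genotypes or peak heights. Since there is no replicate of any list, the comparisons with the rest of the lists are descriptions without a test.

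MSL2 peaks were found at 5 of the 9 genes (55.6%). Hr38, Hr39 and Hnf4 carried 2 peaks each and Hr96 and ERR carried 1 each, while Hr51, Hr78, Hr83 and dsf carried 0. All 8 peaks came from the autosomal list, and 0 came from the HAS list or the other X list. Of 15351 annotated autosomal genes, 14.7% had a peak by the same rule, and of 11749 autosomal protein-coding genes 16.3% did. Of the 8 peaks, 6 were centred within 500 bp of an annotated transcription start site (TSS), and the other 2 lay deep in introns of Hr38 and Hr39. In the map of the 9 genes these 8 peaks fall at gene starts or in the long introns, and none of the 8 lies in a coding exon of these genes or downstream of one.

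**Figure D1:**
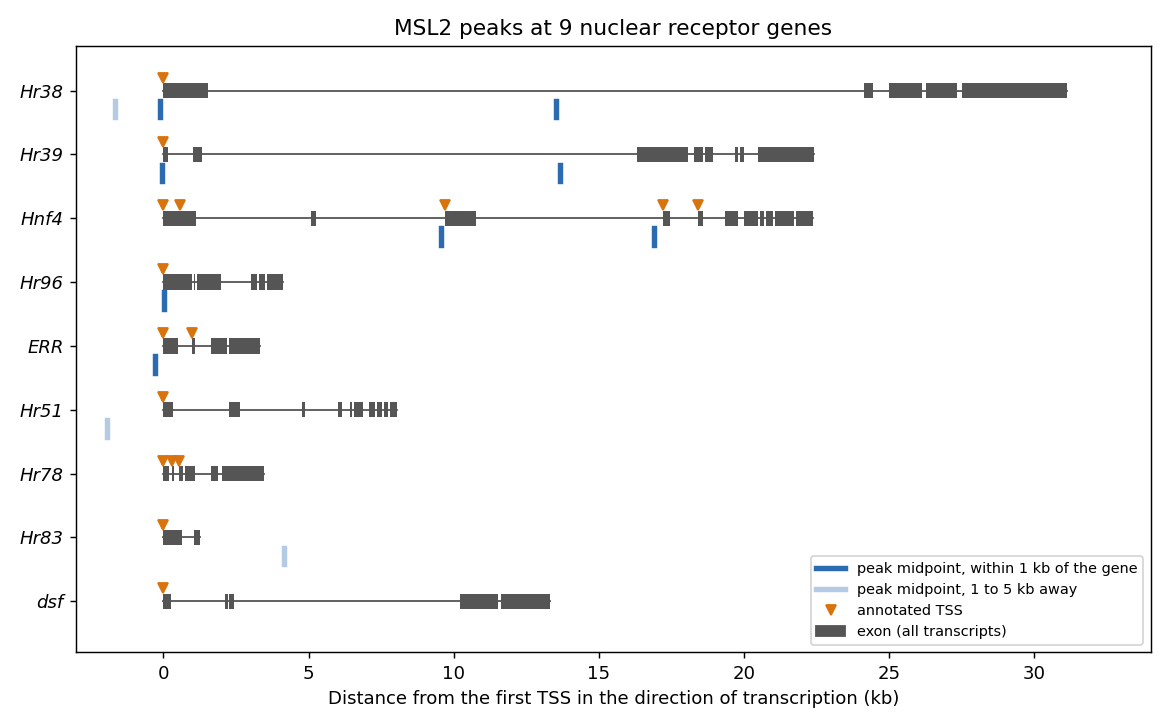
Map of the 9 receptor genes, each drawn from its first TSS in the direction of transcription (horizontal axis, kb), with exons of all transcripts as grey boxes, TSS positions as orange triangles and MSL2 peak midpoints as blue bars (dark within 1 kb of the gene, pale from 1 to 5 kb away). Hr38, Hr39 and Hnf4 carry 2 dark bars each, Hr96 and ERR 1 each, and Hr51, Hr78, Hr83 and dsf 0.

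The sequences under the peaks show which DNA the lists place MSL2 on at these receptors. The peaks of Hr38, Hnf4 and the intronic peak of Hr39 are printed whole on the strand of the gene, since no annotated exon overlaps them. The peak of ERR overlaps an exon, and only its stretch with the repeats is shown. The peaks at the TSS of Hr39 and Hr96 overlap an exon, held 0 GA and 0 CA matches, and are not printed. Capitals mark matches to GAGAGAGA or CACACACA on either strand with up to 1 mismatch. The bases were read from the release 6 reference genome.
Hr38, TSS peak, chr2L:20714648-20714797, minus strand: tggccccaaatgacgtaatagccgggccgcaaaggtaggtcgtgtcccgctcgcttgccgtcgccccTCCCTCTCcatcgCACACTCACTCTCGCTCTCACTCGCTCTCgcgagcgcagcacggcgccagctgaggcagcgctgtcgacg
Hr38, intronic peak, chr2L:20700952-20701185, minus strand: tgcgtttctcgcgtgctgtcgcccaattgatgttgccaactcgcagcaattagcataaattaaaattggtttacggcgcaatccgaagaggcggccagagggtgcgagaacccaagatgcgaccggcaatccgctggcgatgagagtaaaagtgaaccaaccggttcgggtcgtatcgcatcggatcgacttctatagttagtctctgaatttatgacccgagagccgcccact
Hnf4, peak at the fourth TSS, chr2L:8692614-8692779, minus strand: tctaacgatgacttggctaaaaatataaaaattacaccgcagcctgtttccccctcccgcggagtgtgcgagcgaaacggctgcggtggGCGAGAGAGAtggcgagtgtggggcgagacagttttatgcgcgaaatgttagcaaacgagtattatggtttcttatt
Hnf4, peak at the third TSS, chr2L:8699986-8700147, minus strand: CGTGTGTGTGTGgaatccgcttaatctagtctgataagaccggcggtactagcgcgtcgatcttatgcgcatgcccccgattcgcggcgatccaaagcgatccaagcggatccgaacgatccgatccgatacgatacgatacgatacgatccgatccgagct
Hr39, intronic peak, chr2L:21250833-21250995, plus strand: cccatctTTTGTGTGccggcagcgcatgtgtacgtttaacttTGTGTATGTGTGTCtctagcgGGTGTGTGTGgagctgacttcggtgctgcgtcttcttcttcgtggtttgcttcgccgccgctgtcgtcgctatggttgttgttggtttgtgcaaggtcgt
ERR, stretch with the CA words, chr3L:8187012-8187035, minus strand: CACACACACCagCACCCACACAAA

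Hr38 encodes the single fly receptor of the NR4A class, whose mammalian relatives are early response genes, and which is known in flies as an activity-regulated gene in neurons and as a regulator of glycogen stores in the larva. The gene (FBgn0014859) spans 31127 bp on the minus strand of 2L, 20683462 to 20714588, and both of its annotated transcripts start at 20714588. The first peak, 20714648 to 20714797, ended 60 bp upstream of this TSS and had its midpoint 134 bp upstream. It was 150 bp wide, the smallest width in the autosomal list, which 117 of the 1669 peaks shared. Its GC content was 66.7%, higher than that of 99.9% of the autosomal list, where the median was 51.9%. The CTCTC and CACTC blocks in the printed sequence gave 6 GA matches and 1 CA match, all inside the interval. The other peak of Hr38, 20700952 to 20701185, was 234 bp wide, the median width of the list, and lay 13520 bp downstream of the TSS. It was in an intron of 22580 bp that separates the first exon from the rest of the gene in transcript FBtr0081397, and 9028 bp from the nearest TSS of any gene. Its 500 bp window held 0 GA and 0 CA matches. The peaks of this gene therefore differed in sequence, 1 with GA matches, all inexact and some overlapping, and 1 with neither repeat. The longest uninterrupted GA run was 5 bp in the windows of both, which was also the median of the list. Beyond the 1 kb limit a further peak of 334 bp lay 1501 bp upstream of the gene, and of all annotated genes only Hr38 had a TSS within 2 kb of it.

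Hr39 encodes a receptor of the NR5 class that is related to ftz-f1 and is needed for the spermathecae and other glands of the female reproductive tract. The gene (FBgn0261239) spans 22426 bp on the plus strand of 2L, 21237250 to 21259675, and its 4 annotated transcripts share the TSS at 21237250. A peak of 244 bp, 21237096 to 21237339, contained this TSS and had its midpoint 33 bp upstream of it. The divergent gene CG31626 starts 363 bp from the edge of the same peak, at 21236733, so by position the peak cannot be assigned to Hr39 alone. A microRNA gene, mir-9374, starts 962 bp downstream of this peak. The 500 bp window of the TSS peak held 0 GA and 0 CA matches. The other peak of Hr39, 21250833 to 21250995, was 163 bp wide and lay 13664 bp downstream of the TSS, in an intron of 14989 bp that is the second in all 4 transcripts. It held 7 CA matches inside the interval, visible as 3 blocks of TG repeats in the printed sequence, with an uninterrupted run of 9 bp. Its 500 bp window also held 9 GA matches, all outside the interval, between 88 and 194 bp from the midpoint. This was the reverse of Hr38, where the TSS peak carried the repeats and the intronic peak did not.

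Hnf4 encodes the fly orthologue of a mammalian liver receptor, and is known in flies for fatty acid oxidation, mitochondrial function and the control of blood sugar. The gene (FBgn0004914) spans 22386 bp on the minus strand of 2L, 8687226 to 8709611, and has 5 TSS positions with 1 annotated transcript each, at 8709611, 8709042, 8699905, 8692400 and 8691209 in the order of transcription. The third and the fourth carried peaks. The peak at the third TSS, 8699986 to 8700147, was 162 bp wide and ended 81 bp upstream of it, with the midpoint 161 bp upstream. The peak at the fourth TSS, 8692614 to 8692779, was 166 bp wide and ended 214 bp upstream, with the midpoint 296 bp upstream. For the transcripts that start at the first and the second TSS, both peaks lay in the same intron of 14108 bp. The nearest peak to the first TSS was 8453 bp away, outside the gene, and the nearest to the second was 8895 bp away. The 2 peaks had different sequences. That at the fourth TSS held the block GCGAGAGAGA, the only exact match to GAGAGAGA among the 8 peaks. That at the third TSS began with a TG repeat and ended in tandem copies of GATCC and GATAC. Counted on either strand, the word CGAT occurred 12 times in this interval, against a median of 2 in the list, and 1.38% of the autosomal list had as many. This word was chosen after the sequence was seen.

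The second TSS of Hnf4 carried the longest GA repeat at any start of the 9 genes and had no peak. Its 500 bp window held an uninterrupted GA run of 18 bp and 15 GA matches, while that of the third TSS held 0 and that of the fourth TSS held 2. At Hr51 the same held for the other repeat. Its TSS window had the longest CA run of the 9 genes, 14 bp, with 9 CA matches, and the nearest peak lay 1845 bp upstream of the gene. Among the 16 TSS positions of the 9 genes, 6 had a peak within 500 bp, against 11.5% of 15977 TSS positions of autosomal protein-coding genes. A GA match was present at 5 of the 16, of which 3 had a peak, and absent at 11, of which 3 had a peak. A CA match was present at 10, of which 4 had a peak, and absent at 6, of which 2 had a peak.

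Hr96 encodes a receptor that takes part in the response to toxic compounds and in the breakdown and uptake of dietary fat and cholesterol. The gene (FBgn0015240) spans 4117 bp on the plus strand of 3R, 25025235 to 25029351, with a single TSS at 25025235. Its only peak, 25025125 to 25025373, was 249 bp wide, contained the TSS and had its midpoint 14 bp downstream, in the 5′ untranslated region. It was the widest of the 8 peaks and exceeded 54.9% of the autosomal list. EMC6, which encodes a subunit of the ER membrane protein complex, starts on the other strand at 25025017, 108 bp from the edge of the peak. The interval held 0 GA and 0 CA matches, and its 500 bp window held 1 CA match, 159 bp from the midpoint.

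ERR encodes the fly oestrogen-related receptor, which is known to switch larvae to the rapid use of sugar that supports growth. The gene (FBgn0035849) spans 3311 bp on the minus strand of 3L, 8183361 to 8186671, with TSS positions at 8186671 and 8185670. Its peak, 8186864 to 8187058, was 195 bp wide and lay outside the gene, 193 bp upstream of the first TSS. The whole interval was inside the first exon of transcript FBtr0346547 of Atg18a, the divergent autophagy gene, and a TSS of Atg18a at 8186995 lay within it, 34 bp from the midpoint. By position this peak was therefore closer to Atg18a than to ERR. It held 5 CA matches, with an uninterrupted run of 9 bp, and 0 GA matches.

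The 4 genes without a peak differed in how far the nearest one was. Hr51, also called unfulfilled, functions in mushroom body and clock neurons. It spans 8060 bp of 2R, 15331325 to 15339384, on the plus strand, and its nearest peak was the one 1845 bp upstream, which lay 1021 bp from the start of CG8160. Hr83 is a short gene of 1270 bp on the plus strand of 3R, 6349243 to 6350512. Its nearest peak was 2783 bp downstream, in the 5′ untranslated region of Pak, which encodes a protein kinase, and 172 bp from a TSS of that gene. Hr78, which is needed for larval growth and metamorphosis, spans 3476 bp on the minus strand of 3L, 21494019 to 21497494. It has 3 TSS positions, none with a peak, and its nearest peak was 14061 bp downstream. For dsf, a gene of the nervous system that is needed for the sexual behaviour of both sexes, the nearest peak was 34824 bp downstream of the gene, which spans 13325 bp on the plus strand of 2L, 5925937 to 5939261. A window of 5 kb to either side would thus have added Hr51 and Hr83, and left Hr78 and dsf without a peak.

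Gene length sets how much room a peak has, so each gene was read against autosomal protein-coding genes of its length. Of the 4 genes under 5 kb, Hr96 and ERR had a peak and Hr78 and Hr83 had none, and of all genes under 5 kb 11.5% had one. Hr51, of 5 to 10 kb, had none where 27.5% of its class had one, and dsf, of 10 to 20 kb, had none where 33.9% did. The 3 genes of 20 to 50 kb, Hr38, Hr39 and Hnf4, each had 2 peaks, where 34.8% of the class had at least 1 and 11.6% had at least 2. By promoters alone, 5 of the 9 genes had a peak within 500 bp of a TSS, against 11.7% of autosomal protein-coding genes. Per 10 kb of gene and flanks the 5 genes ranged from 0.604 peaks at Hr38 to 1.88 at ERR, and together the 9 genes held 62.7 peaks per Mb searched. The autosomes held 15.4 peaks per Mb and the bodies of autosomal protein-coding genes with their flanks 19.2. Neither base is matched for gene length, and for the 19.2 stretches shared by neighbouring genes were counted once. The autosomal count was 1693 peaks, more than the 1669 of the autosomal list, so it includes some peaks of another list. With 9 genes and 8 peaks, each gene moves these shares by over 10 percentage points.

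**Figure D2:**
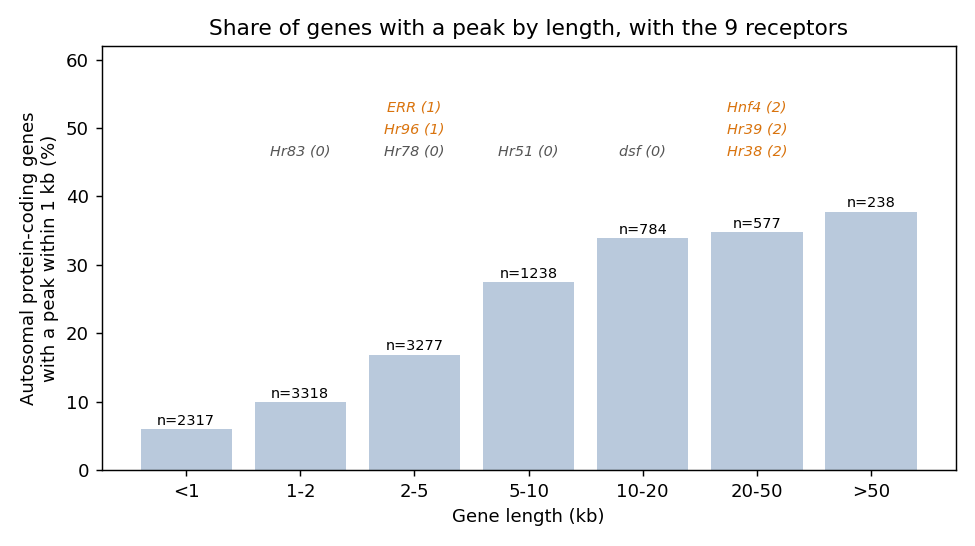
Bars give the percent of autosomal protein-coding genes with an MSL2 peak within 1 kb of the gene (vertical axis) by gene length in kb (horizontal axis), with the number of genes above each bar. The 9 receptors are named over their class with their number of peaks in brackets, in orange where they have a peak, and 3 of 3 in the class of 20 to 50 kb have 2.

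On the autosomes 222 of 11749 protein-coding genes (1.89%) had exactly 2 peaks, as Hr38, Hr39 and Hnf4 did. Those closest to Hr38 in length were raw (30781 bp), Pka-R2 (32153 bp) and gish (32317 bp), each with a peak within 500 bp of 1 TSS. Hr39 and Hnf4 were closest to each other, 40 bp apart in length, followed by Itpr (22295 bp) and the Hox gene abd-A (22836 bp).

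The widths of the receptor peaks ran from 150 to 249 bp with a median of 180.5 bp, against a median of 234 bp in the autosomal list, where the quartiles were 179 and 331 bp and the widest peak measured 4763 bp. Of the 8, 5 were narrower than the list median, that in the Hr38 intron equalled it, and those at the TSS of Hr39 and Hr96 were above it. None reached the upper quartile of the list.

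**Figure D3:**
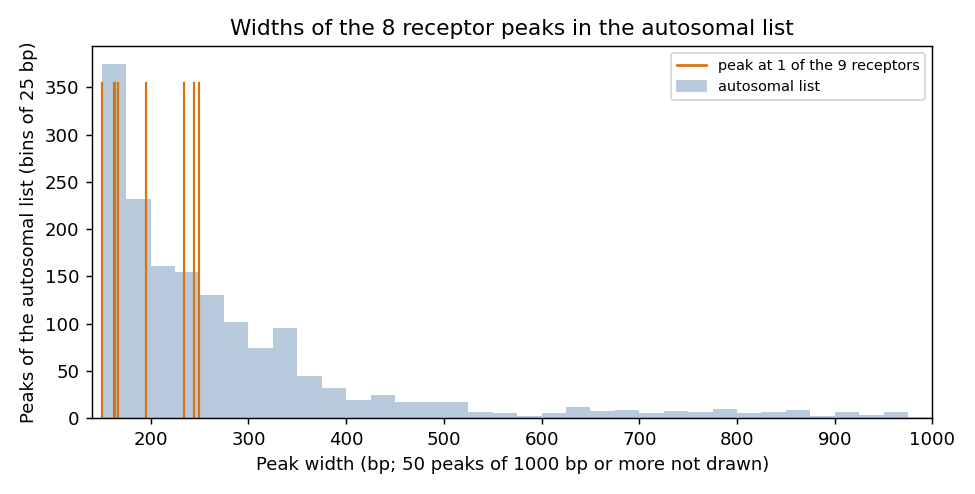
Histogram of the widths of the autosomal list (horizontal axis, bp, bins of 25 bp; vertical axis, number of peaks), drawn up to 1000 bp and leaving out 50 peaks of 1000 bp or more. Orange lines mark the 8 peaks at the receptors, which lie between 150 and 249 bp.

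The 6 peaks at a TSS were mostly upstream of it. Relative to the gene's own nearest TSS the midpoints lay at -296, -290, -161, -134, -33 and 14 bp, so 5 of 6 were upstream. Against the nearest TSS of any gene, the count was also 5 of 6, and in the autosomal list 56.7% of 1110 TSS peaks were upstream. By midpoints, 75.0% of the 8 receptor peaks lay within 500 bp of a TSS, against 66.5% of the autosomal list. This order turned with the definition, since the receptor peaks were below the list within 1 kb (75.0% against 75.9%), with the first TSS of each gene alone (4 of 8 against 52.1%) and by overlap with a TSS (37.5% against 51.4%), so no difference from the list is read from it. At ERR, Hr39 and Hr96 a divergent gene started close by, with its TSS inside the peak (Atg18a at ERR) or at most 363 bp from the edge. At Hr38 and at the 2 internal starts of Hnf4 no other gene started within 1 kb of the peak.

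The CA repeat was found at 6 of the receptor peaks and the GA repeat at 3. In 500 bp windows, CACACACA with up to 1 mismatch occurred in 6 of 8 peaks (75.0%, 95% Wilson interval 40.9 to 92.9), against 64.9% of the autosomal list and 42.1% of TSS windows of autosomal protein-coding genes. The MSL complex is known to recognise GA-rich elements on X, and the GA repeat occurred in 3 of 8 (37.5%, 13.7 to 69.4), at the Hr38 TSS, the fourth TSS of Hnf4 and the Hr39 intron. The share was 48.7% in the autosomal list and 26.6% in TSS windows. Both intervals include the list's value, and they cover counting error only. For the GA repeat the order also turned, to 12.5% against 11.8% of the list without mismatches and to 37.5% against 31.9% in 200 bp windows. Inside the peak intervals themselves the GA repeat was found at 2 peaks and the CA repeat at 4. Among the control words, the A tract AAAAAAAA was in 6 of 8 windows (74.7% of the list), GGAAGGAA in 1 (26.5%) and CCAACCAA in 2 (37.0%). The windows at the Hr38 intron and the Hr39 TSS held neither repeat. The median GC content of the windows was 43.9%, against 47.4% in the autosomal list and 41.4% at TSS positions.

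**Figure D4:**
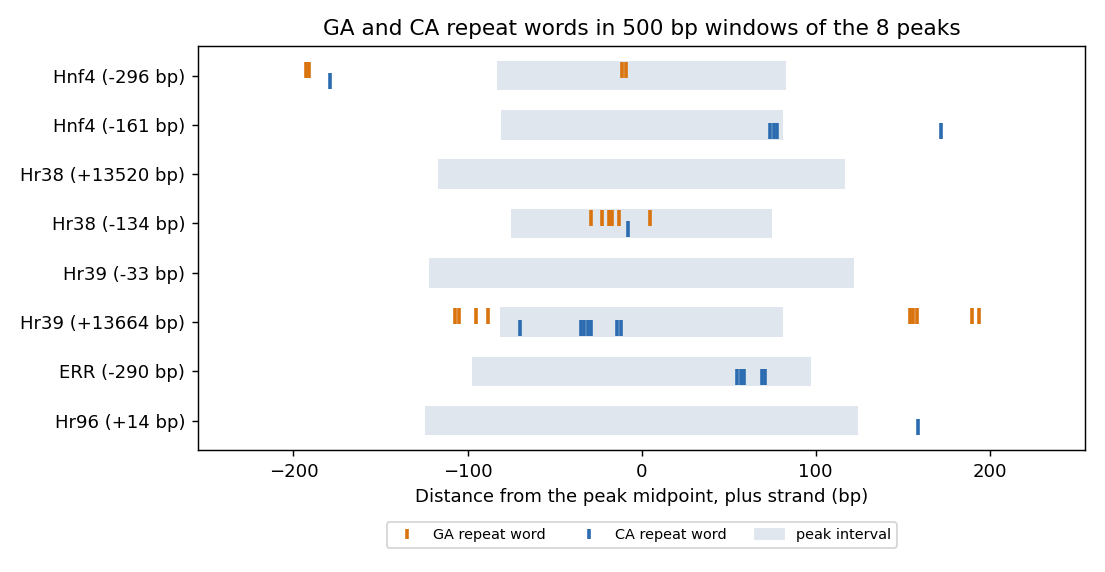
Positions of GA repeat words (orange) and CA repeat words (blue) in 500 bp windows around the 8 receptor peaks, as distance from the peak midpoint on the plus strand (horizontal axis, bp), with the peak interval shaded and each row named by gene and by its distance from the nearest TSS of that gene. Orange marks occur in 3 windows and blue marks in 6.

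The half-site that nuclear receptors themselves bind was not found near these peaks. AGGTCA occurred without mismatch in 0 of 8 windows (Wilson interval up to 32.4%), against 7.91% of the autosomal list and 10.2% of TSS windows. The extended half-sites TCAAGGTCA, bound by ERR and by receptors of the class of Hr39, and AAAGGTCA, bound by relatives of Hr38, were also in 0 of 8, and were in 0.180% and 0.779% of the list. With up to 1 mismatch it was in 100% of the receptor windows and 91.4% of the list. The absence says only that these exact letters do not stand in these windows.

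Within the nuclear receptor family the 9 genes were compared with the other 12, which include the ecdysone receptor and its early targets. Of the 10 others on autosomes, 6 had a peak (60.0%), against 16.3% of autosomal protein-coding genes of all lengths. The 23 peaks at these 10 genes gave 54.7 per Mb searched. Those with a peak measured 33354 bp (Hr3) to 113744 bp (Eip75B), and those without measured 2086 bp (tll) to 23519 bp (knrl). Among autosomal protein-coding genes, 34.8% of those of 20 to 50 kb and 37.8% of those of 50 kb or more had a peak. The 16.3% is therefore not a base matched for length. Eip75B had 9 peaks, EcR 6 and ftz-f1 4, in genes of 113744, 81215 and 50703 bp, which gives 0.778, 0.721 and 0.759 peaks per 10 kb. Eip78C, Hr3 and svp, the other autosomal relatives with a peak, had 0.477, 0.283 and 0.217. Among the 9 genes, those with a peak had 0.604 (Hr38), 0.819 (Hr39), 0.820 (Hnf4), 1.63 (Hr96) and 1.88 (ERR). On X, Hr4 had 5 peaks and usp, the partner of the ecdysone receptor, had 1, all from the other X list. The 29 peaks at the other 12 genes held the GA repeat in 75.9% of windows (57.9 to 87.8), compared with 37.5% (13.7 to 69.4) here, and the intervals overlap. These 29 include the 6 on X, whereas the 8 here are all autosomal, and no share is given for their autosomal peaks alone. They held the CA repeat in 75.9%, and AGGTCA in 24.1% (12.2 to 42.1). In the autosomal list the GA repeat was in 48.7%, the CA repeat in 64.9% and AGGTCA in 7.91%.

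**Figure D5:**
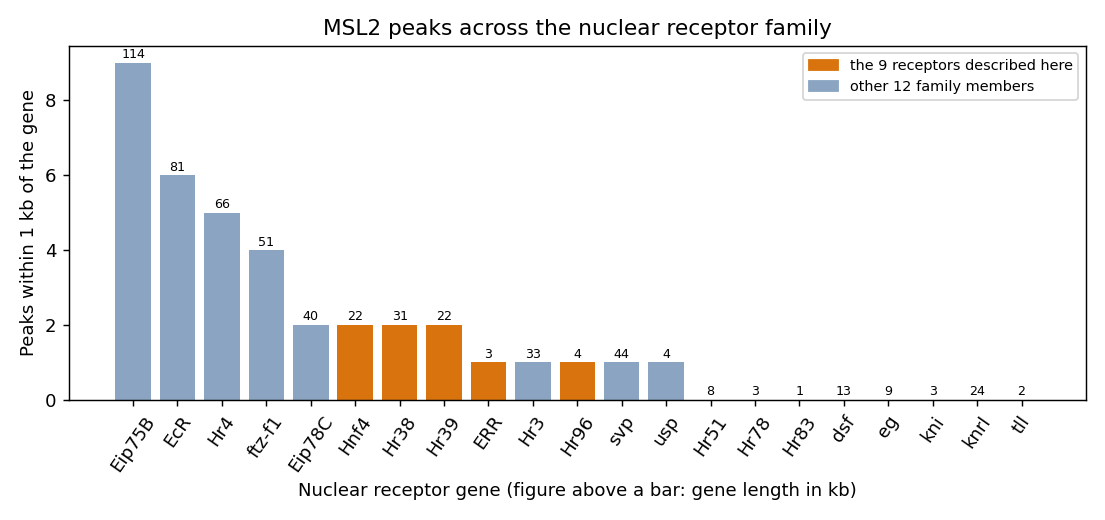
Number of MSL2 peaks within 1 kb of the gene (vertical axis) for all 21 nuclear receptor genes, with the 9 receptors described here in orange, the other 12 in blue and gene length in kb above each bar. Hr38, Hr39 and Hnf4 stand at 2 peaks and Eip75B at 9, and Hr51, Hr78, Hr83 and dsf are at 0 together with eg, kni, knrl and tll.

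The receptors without a peak are given here by class. The class of tailless, which holds tll, Hr51, dsf and Hr83, had 0 of 4 genes with a peak, and the class of knirps, which holds kni, knrl and eg and lacks the ligand domain, had 0 of 3. Among the remaining 14 genes only Hr78 had none. This grouping by class was made after the values were seen. The 7 genes of these 2 classes measured 1270 bp (Hr83) to 23519 bp (knrl). They fall into length classes in which 11.5% (under 5 kb, 3 genes), 27.5% (5 to 10 kb, 2 genes), 33.9% (10 to 20 kb, 1 gene) and 34.8% (20 to 50 kb, 1 gene) of autosomal protein-coding genes had a peak, so most genes of each length had none, and nothing is read from the class.

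Partners and targets of the receptors were counted in the same way. Of the 8 coregulator genes on autosomes, 3 had a peak (37.5%), against 16.3% of autosomal protein-coding genes. These were tai, a coactivator gene with 4 peaks, bon with 1 and the histone deacetylase gene Rpd3 (HDAC1 in the annotation) with 1, while rig, CSN2 (alien in the annotation), Cmi (Lpt), mbf1 and Hsp83 had 0. The lengths of tai, bon and Rpd3 were 83434, 19402 and 2734 bp. Autosomal protein-coding genes had a peak in 37.8% (50 kb or more), 33.9% (10 to 20 kb) and 11.5% (under 5 kb) of their length classes. Those without a peak measured 2436 bp (mbf1) to 6806 bp (rig). On X, where 38.1% of 2196 protein-coding genes of all lengths had a peak, all 3 coregulator genes listed had one. They measured 8638 bp (trr) to 58416 bp (Smr), and no share by length is given for X. Smr, the corepressor gene, had 6 peaks, of which 1 was a HAS, and trr and nej, which encode histone modifying coactivators, had 1 HAS each. Of the 10 autosomal genes for the breakdown of sugar, the pathway that ERR is known to drive, 7 had a peak (70.0%). The share was 16.3% of all autosomal protein-coding genes, 11.5% of those under 5 kb and 27.5% of those of 5 to 10 kb. Pfk, Ald1, Pgk and PyK fell in the class of 5 to 10 kb and the rest were shorter. The 10 genes held 11 peaks or 175 per Mb searched. The 19.2 per Mb of autosomal protein-coding genes with their flanks is not a base matched for length. Such genes held on average 0.109 peaks at 1 to 2 kb, 0.186 at 2 to 5 kb and 0.330 at 5 to 10 kb. Eno had 3 peaks, Pgk and Pfk 2 each, and Pgi, Ald1, Gapdh1 and Pglym78 1 each, in genes of 1480 bp (Gapdh1) to 7718 bp (Pfk). Tpi, PyK and Ldh had 0. On X, 3 of 4 had a peak, Hex-A with 2 and Zw and Pgd with 1 each, and Gapdh2 had 0. Whether peaks at these genes and at ERR occurred in the same libraries or sex was not tested.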

How the data were processed

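Per the labels, chromatin was cut with micrococcal nuclease and sonicated. The aligner Bowtie2 2.3.0.1, the peak caller MACS2 2.1.1.20160309.0, and the bedtools suite are named in the submitters' processing notes, as are the builds dm6 and BDGP6, with no role or order. No source used here gives the control, the threshold or the pooling of libraries. The deposited peak lists hold chromosome, start and end of each interval. A score column, deposited in the autosomal list only, is 0 in every row and was not used. The HAS list held 170 rows, counted as 159 distinct intervals. Starts were converted to 1-based positions, and 0 intervals passed a chromosome end of the reference. Genes and TSS positions came from Ensembl release 115 (BDGP6, annotation 54), without transposable elements. A peak was at a gene when it overlapped the body or 1 kb to either side, and at a TSS when its midpoint lay within 500 bp. A TSS had a peak when an interval overlapped the 500 bp to either side. The word search took windows of 500 bp around midpoints or TSS positions and read either strand.

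The genes, gene lists, words and rules were chosen with earlier results of these data known, so no test was made. The rule named all members and their peaks, genes that start within 1 kb of such a peak, up to 4 genes per list with the most peaks, and for the member with the most peaks the 3 genes nearest in length with as many, applied to each of the 3 tied members. Other genes named, such as list genes with 1 or 0 peaks and those at peaks beyond 1 kb, were chosen after their values were seen. Symbols were matched directly or through RefSeq synonyms, and all were found. Shares carry 95% Wilson intervals (scipy 1.17.1, Python 3.11.15), which treat peaks as independent. The word search was tested on simulated sequences, and the counting against a direct search of the peaks at sampled autosomal protein-coding genes. Figures were drawn with matplotlib 3.10.9.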

Additional observations from a re-analysis of the deposited data

How the results depend on the processing

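Of 31 alternatives over 8 results, 25 moved a value by less than its counting error, or a count by at most 1.5 times. The order of receptor peaks and autosomal list nevertheless turned in several of them. Genes with a peak numbered 4 with the gene body alone, 6 with 2 kb and 7 with 5 kb to either side, against 5, and the peaks numbered 6, 10 and 11, against 8. The share of receptor peaks at a TSS fell from 75.0% to 37.5% when the peak had to overlap the TSS, and that of the autosomal list from 66.5% to 51.4%. Within 1 kb (75.0%, list 75.9%) and with first TSS positions alone (4 of 8, list 52.1%) the receptor peaks were also below the list. In 200 bp windows the GA repeat was in 37.5% (list 31.9%), above the list instead of below it. With 0 mismatches it was in 12.5% of receptor peaks and the CA repeat in 37.5% (list 11.8% and 28.9%), and with words of 12 bp in 0% and 25.0% (list 10.8% and 23.8%). With up to 1 mismatch the receptor half-site was in 100% (list 91.4%). The cause of these shifts was not tested. TSS positions from RefSeq, an alternative chosen after seeing the data, gave 75.0% at a TSS. No paired analysis was possible because the lists name no library. The depth is unknown, and without scores a weak peak cannot be told apart from a strong one.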

Other observations

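Long repeats at gene starts were looked up because the second TSS of Hnf4 had an 18 bp GA run and no peak. The run length differed between the 2 repeats, so their shares are not set against each other. Of 4243 TSS positions of autosomal protein-coding genes with a GA match in their 500 bp window, 16.2% had a peak within 500 bp, against 9.86% of those without. With an uninterrupted GA run of 18 bp or more, 4 of 103 positions had a peak (3.88%), against 11.6% of positions without such a run. For the CA repeat, 15.2% of positions with a match and 8.91% without had a peak. Of 252 positions with a CA run of 14 bp or more, as at Hr51, 19.4% did, against 11.4% without such a run. These run lengths were chosen after the values were seen, and positions of 1 gene can share a peak.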
